A study of Mus musculus with 8 samples.

Results

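Expression of 9 genes of naive and central memory T cells, Tcf7, Lef1, Satb1, Bach2, Foxo1, Klf2, S1pr1, Ccr7 and Il7r, was compared between CCR8+ and CCR8- CD4+ Tconv cells from melanomas of Treg cell-depleted mice. The genes were taken by symbol from a list chosen with earlier results of these data known. All 9 were among the 11233 genes of the table, and all 9 passed the filter for testing, a mean of 10 normalized counts or more over the libraries, as did 11032 genes in all. The cells were Foxp3EGFP- Tconv cells sorted from subcutaneous B16-F10 tumors, a melanoma cell line of C57BL/6 origin, grown in Foxp3-EGFP-DTR mice of 8 to 14 weeks of age. In these mice EGFP and the diphtheria toxin receptor (DTR) are expressed from the Foxp3 locus, so that diphtheria toxin (DTx) removes Treg cells. DTx was given at 1 μg in 4 injections, on days 7, 9, 11 and 13 after implantation, and tumors were harvested on day 16. There were 4 CCR8+ and 4 CCR8- libraries, described by the study as biological replicates isolated on the same day. Both populations carried the same genotype and received DTx, and Treg-replete mice were not analysed here. The comparison therefore asks how the 2 Tconv populations of depleted tumors differ from each other, with CCR8, a chemokine receptor, as the sorting marker.

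Naive T cells circulate between blood and lymph nodes and are kept in that state by a small group of transcription factors. TCF1 (Tcf7) and LEF1 are HMG-box factors that act with β-catenin or with Groucho corepressors, SATB1 organizes chromatin around T cell genes, and BACH2 represses effector genes. FOXO1, which PI3K and AKT signals drive out of the nucleus, sustains Klf2, Il7r and the lymph node homing gene Ccr7. KLF2 in turn sustains S1pr1, the receptor that guides T cells out of tissues along sphingosine-1-phosphate. These genes are known to be lowered as T cells become effector cells and to remain in memory cells that recirculate.

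The libraries held between 12067780 and 17802628 recovered reads, and between 8569 and 10882 genes were detected in each. The deposited values are read counts divided by 1 factor per library, called normalized counts here, and 3 reads corresponded to between 2.21 and 3.42 normalized counts. Ccr8 was at 2039, 1293, 6214 and 4637 normalized counts in CCR8- replicates 1 to 4 and at 7975, 6970, 42508 and 22965 in CCR8+ replicates 1 to 4. The 4 CCR8+ libraries were thus all above the 4 CCR8- libraries (log2 fold change 2.37, SE 0.62, two-sided exact permutation p = 0.0286, the smallest that 4 against 4 libraries allow). The sum of 11 T cell markers was between 108627 and 145844 normalized counts in CCR8- and between 108352 and 140461 in CCR8+ libraries. CCR8- replicate 1 had 242 genes at 0 that reached at least 100 normalized counts in each of the other libraries, while CCR8+ replicates 1 and 3 had 44 and 36 such genes and the rest had 0.

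Across all genes, limma called 0 of 11032 genes at an adjusted p under 0.05, 0% of those tested, and none of the 9 genes was called. At an unadjusted p under 0.05 limma had 562 genes, 5.09%, while DESeq2 on the recovered reads called 27 genes (0.245%) and edgeR 0 at an adjusted p under 0.05, again with none of the 9. When limma weighted each library by its residual spread, 112 genes (1.02%) were called, 4 of the 9 among them, namely Lef1, Klf2, S1pr1 and Foxo1, each with a lower level in CCR8+ cells. The values below rest on the limma comparison without weights. There, the 5.09% of genes at an unadjusted p under 0.05 is near the share that this threshold gives when no gene differs. After adjustment over all genes, no difference was told apart from the spread between libraries. This held for Ccr8 too, the gene of the sorting marker, whose log2 fold change was 2.37 (limma unadjusted p = 0.0028, adjusted p = 0.83). The absence of calls therefore does not show that the populations express the 9 genes alike. Of the 9 genes, 8 had a log2 fold change below 0 in CCR8+ against CCR8- cells, compared with 47.6% of all tested genes. Their median was -1.13, against 0.04 over all tested genes. This median is the value of Bach2, a gene of low depth whose sign rested on 1 library, as given below. With a mean of at least 100 required, which leaves Bach2 out, the median of the other 8 genes was -1.07. A log2 fold change below -0.5 was seen for 8 of the 9 and for 23.5% of all genes, and one below -1 for 5 of the 9 and for 12.6% of all genes. Bach2 is among the genes in each of these counts. Unadjusted p-values were under 0.05 for 6 of the 9, all of them lower in CCR8+ cells, where 2.29% of all genes met both conditions. Adjusted p-values of the 9 genes ran from 0.83 for Lef1 to 0.904 for Ccr7 by limma. In bulk samples, fewer cells that express a gene and less RNA per cell cannot be told apart.

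**Figure D1:**
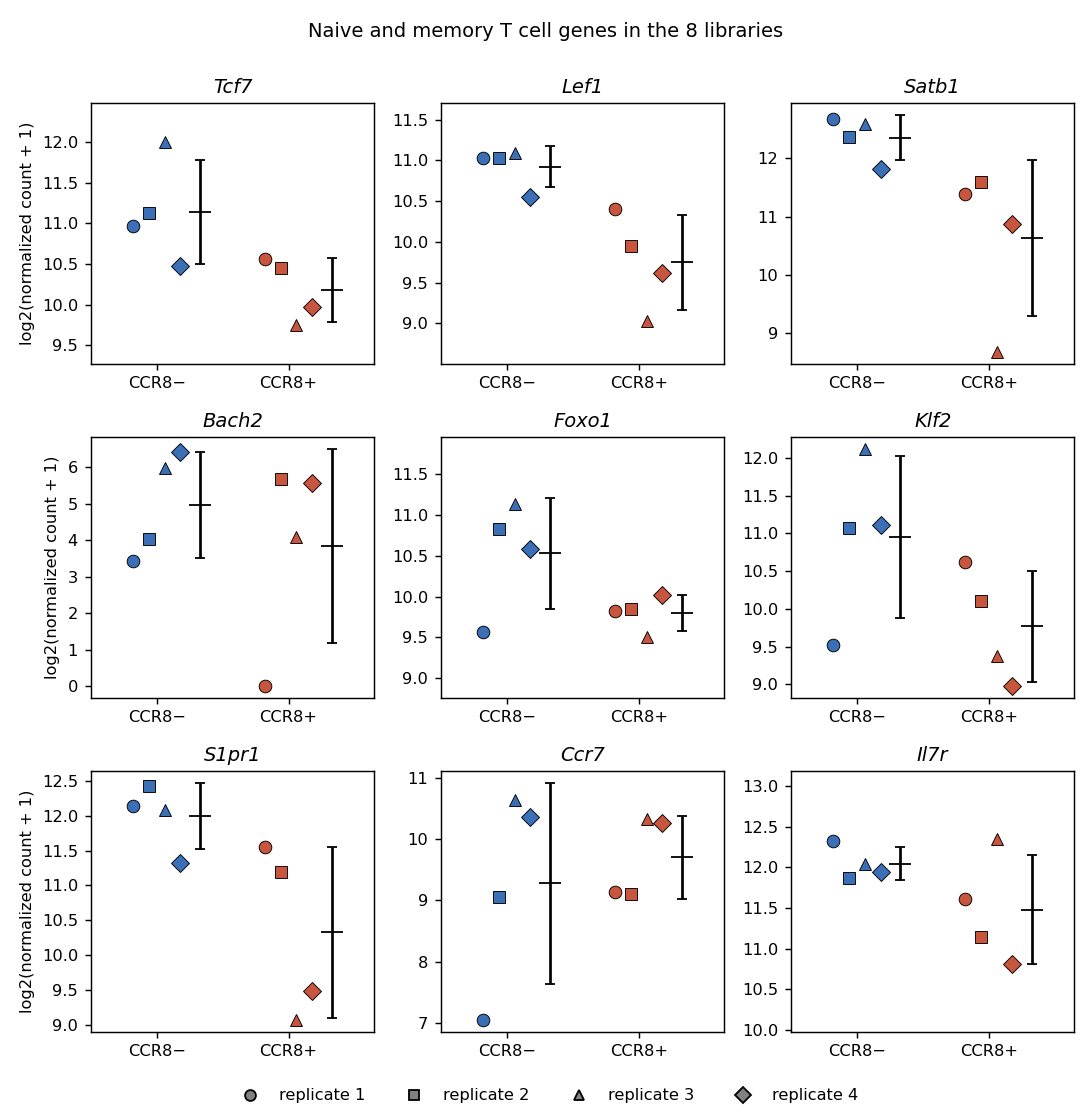
Level of each of the 9 genes as log2(normalized count + 1) in the 4 CCR8- (blue) and 4 CCR8+ (red) libraries, with symbols for the replicate numbers and, beside each group, its mean and SD; each panel has its own axis range. For Lef1 and Satb1 all 4 CCR8+ libraries lie below all 4 CCR8- libraries, and the groups of the other 7 genes overlap.

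Lef1 and Satb1, both encoding DNA-binding factors of early and naive T cells, were the only 2 of the 9 genes whose groups did not overlap; among all tested genes, 4.4% did not overlap in either direction and 2.03% did not and had the lower level in CCR8+ cells. Their RefSeq promoters (GRCm38.p6, 250 bases upstream of an annotated start, written 5′ to 3′ on the strand of the gene) are shown because these genes separated the populations most cleanly. Lef1 is shown at its outermost start (chr3:131110047-131110296, plus strand) and at an internal start (chr3:131156044-131156293, plus strand), and Satb1 at its outermost start (chr17:51833291-51833540, minus strand). Capitals mark matches, on either strand, to the letters CTTTGA bound by TCF1 and LEF1 or CACCC bound by KLF factors.

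Lef1 outermost start: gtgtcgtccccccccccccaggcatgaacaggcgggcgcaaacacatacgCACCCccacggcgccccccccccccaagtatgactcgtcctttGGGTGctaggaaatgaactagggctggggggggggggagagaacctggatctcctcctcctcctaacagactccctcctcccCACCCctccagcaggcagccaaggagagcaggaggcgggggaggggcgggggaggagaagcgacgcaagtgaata

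Lef1 internal start: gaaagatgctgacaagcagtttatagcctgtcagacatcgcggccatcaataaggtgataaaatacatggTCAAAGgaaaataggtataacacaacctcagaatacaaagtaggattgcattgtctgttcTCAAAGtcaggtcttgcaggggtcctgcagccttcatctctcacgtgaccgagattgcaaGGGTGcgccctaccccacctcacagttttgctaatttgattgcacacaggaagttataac

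Satb1 outermost start: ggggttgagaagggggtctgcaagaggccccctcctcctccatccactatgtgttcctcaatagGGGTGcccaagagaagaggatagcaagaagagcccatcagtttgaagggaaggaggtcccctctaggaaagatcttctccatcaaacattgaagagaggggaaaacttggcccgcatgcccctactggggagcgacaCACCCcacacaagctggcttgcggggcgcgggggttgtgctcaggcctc

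Promoters were found for 7 of the 9 genes, with 15 starts in all; S1pr1 and Ccr7 had no entry. CTTTGA was present at 2 of the 15 starts and at 13.8% of 32851 starts of all genes. These 2 were the internal start of Lef1 shown above, which holds it 2 times, and a start of Bach2. The other starts of Lef1, internal ones among them, do not hold it. CACCC was present at 11 of the 15 starts and at 52.0% of all starts, and the forkhead letters GTAAACA at 0 of 15 and at 3.17%. The 11 starts with CACCC belong to 4 of the 7 genes, and some windows of Lef1 and of Satb1 overlap, so that matches are counted more than once. These matches describe the letters of the windows and are not evidence of binding. The matches of CTTTGA and CACCC do not overlap in the sequences shown.

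Lef1 lies on chromosome 3 at 131110471 to 131224356 (plus strand, GENCODE annotation of GRCm38, the build of all gene positions given here). Its level was 2087, 2087, 2179 and 1493 normalized counts in CCR8- replicates 1 to 4 and 1357, 986, 520 and 783 in CCR8+ replicates 1 to 4. The group means were 1962 ± 315 and 911 ± 353 (SD, n = 4 each), and the log2 fold change was -1.17 (SE 0.30, 95% interval -1.84 to -0.50). The highest CCR8+ library was below the lowest CCR8- library, which gave a two-sided exact permutation p of 0.0286. Lef1 had rank 29 of 11032 genes by unadjusted p. Of its exonic bases, 13.7% are shared with Gm43352 on the other strand, and the use of strand in counting is not given in the sources used here, so that part of its reads cannot be assigned.

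Satb1 lies on chromosome 17 at 51736187 to 51833290 (minus strand) and had, with S1pr1, one of the 2 largest differences of the 9 genes in this comparison. It was at 6477, 5242, 6108 and 3599 normalized counts in CCR8- and at 2667, 3098, 409 and 1875 in CCR8+ replicates 1 to 4. CCR8+ replicate 3 stood far below the other CCR8+ libraries. The means were 5357 ± 1281 and 2012 ± 1183 (SD, n = 4 each), with a log2 fold change of -1.72 (SE 0.54, 95% interval -2.90 to -0.54, exact permutation p = 0.0286). Without CCR8+ replicate 3 the log2 fold change of Satb1 was -1.07. Satb1 also shares 156 exonic bases with another gene on its own strand.

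Tcf7, which encodes TCF1, lies on chromosome 11 at 52252371 to 52283014 (minus strand). Its level was 1998, 2240, 4103 and 1420 normalized counts in CCR8- and 1510, 1404, 858 and 1000 in CCR8+ replicates 1 to 4. The groups overlapped by 1 library of each, since CCR8+ replicate 1 was above CCR8- replicate 4. The means were 2440 ± 1161 and 1193 ± 313 (SD, n = 4 each), and the log2 fold change was -0.96 (SE 0.33, 95% interval -1.69 to -0.23, exact permutation p = 0.0571). Without CCR8- replicate 3, which had the highest value, the log2 fold change of Tcf7 was -0.67. Without both libraries numbered 3 it was -0.53. A list of 8 tested genes around TCF1 and LEF1 held the β-catenin gene, Groucho genes, Axin1, Axin2, Apc and Gsk3b. It had 6 members below 0 and a median log2 fold change of -0.51. None was called, at an unadjusted p under 0.05 or separated between the groups. Ctnnb1, which encodes β-catenin and had the largest mean of that list, had a log2 fold change of -0.18, which was 0.01 without CCR8+ replicate 3.

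Foxo1 lies on chromosome 3 at 52268336 to 52353221 (plus strand). It was at 758, 1820, 2252 and 1538 normalized counts in CCR8- and at 901, 922, 723 and 1036 in CCR8+ replicates 1 to 4. The CCR8+ libraries lay within a narrow range, and all but CCR8- replicate 1 of the other population lay above it. The means were 1592 ± 628 and 896 ± 129 (SD, n = 4 each), with a log2 fold change of -0.73 (SE 0.33, 95% interval -1.46 to -0.01, exact permutation p = 0.114). Klf2, on chromosome 8 at 72319033 to 72321656 (plus strand), had the same arrangement. It was at 735, 2144, 4434 and 2220 normalized counts in CCR8- and at 1573, 1101, 661 and 504 in CCR8+ replicates 1 to 4. Again the low value in CCR8- replicate 1, the library with the most genes at 0, fell among the CCR8+ values. The Klf2 means were 2383 ± 1528 and 960 ± 480 (SD, n = 4 each), and the log2 fold change was -1.19 (SE 0.51, 95% interval -2.32 to -0.06, exact permutation p = 0.143). Without CCR8- replicate 1 the groups of Klf2 and Foxo1 did not overlap either, as was then true of 4 of the 9 genes and, in the lower direction, of 4.26% of all genes. Their log2 fold changes were then -1.66 for Klf2 and -1.06 for Foxo1. Without CCR8- replicate 3, which had the highest value of both, they were -0.80 and -0.53, and without both libraries numbered 3 they were -0.67 and -0.43. Of the exonic bases of Foxo1, 7.78% are shared with Gm20402 on the other strand.

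Bach2, on chromosome 4 at 32238804 to 32586108 (plus strand), was measured at low depth, with 177 reads over the 4 CCR8- libraries and 128 over the 4 CCR8+ libraries. It shares 5.40% of its exonic bases with Bach2os on the other strand. It was at 9.85, 15.4, 62.3 and 85.2 normalized counts in CCR8- and at 0, 50.4, 16 and 47.0 in CCR8+ replicates 1 to 4. The ranges overlapped almost wholly, with a log2 fold change of -1.13 (SE 1.68, 95% interval -4.83 to 2.56, exact permutation p = 0.514). Without CCR8+ replicate 1, where Bach2 was at 0, the log2 fold change was 0.14, so that a single library set its sign and no difference was detectable at this depth.

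Among the receptors of egress and lymph node homing, S1pr1 lies on chromosome 3 at 115710433 to 115715072 (minus strand). It was at 4510, 5528, 4327 and 2556 normalized counts in CCR8- and at 3014, 2336, 536 and 713 in CCR8+ replicates 1 to 4. The only overlap was that of CCR8+ replicate 1 with CCR8- replicate 4, and CCR8+ replicates 3 and 4 were far below the rest. The S1pr1 means were 4231 ± 1235 and 1650 ± 1218 (SD, n = 4 each), with a log2 fold change of -1.67 (SE 0.51, 95% interval -2.80 to -0.54, exact permutation p = 0.0571). With the replicate number as a block, a pairing that the labels do not state, DESeq2 called S1pr1 (adjusted p = 0.00888). By that fit 1.14% of all genes were called. With the same block limma (adjusted p = 0.758) and edgeR (adjusted p = 0.997) did not call it.

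Ccr7, the receptor for the lymph node chemokines CCL19 and CCL21, was the only one of the 9 genes with a log2 fold change above 0 in this comparison. It lies on chromosome 11 at 99144196 to 99155077 (minus strand). It was at 131, 531, 1589 and 1322 normalized counts in CCR8- and at 563, 547, 1285 and 1227 in CCR8+ replicates 1 to 4. The means of 893 ± 678 and 905 ± 406 (SD, n = 4 each) were almost equal, and the log2 fold change was 0.43 (SE 0.70, 95% interval -1.10 to 1.96, exact permutation p = 0.771). In both populations replicates 3 and 4 were higher than replicates 1 and 2. Without CCR8- replicate 1, which had the lowest value, the log2 fold change of Ccr7 was -0.31, so that its sign rested on that library. The interval spans both a lower and a higher level in CCR8+ cells, and the data do not show that the populations express Ccr7 alike.

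Il7r, the α-chain of the IL-7 receptor that sustains naive and memory cells, lies on chromosome 15 at 9505788 to 9530176 (minus strand). It was at 5127, 3722, 4203 and 3931 normalized counts in CCR8- and at 3113, 2268, 5227 and 1789 in CCR8+ replicates 1 to 4. CCR8+ replicate 3 had the highest value of all 8 libraries, whereas the other CCR8+ libraries were below every CCR8- library. The means were 4246 ± 620 and 3099 ± 1520 (SD, n = 4 each), and the log2 fold change was -0.56 (SE 0.31, 95% interval -1.24 to 0.11, exact permutation p = 0.2). It was -0.86 without CCR8+ replicate 3 and -0.34 without CCR8+ replicate 4. In the list of 11 genes of the IL-7 receptor pathway, 6 were below 0 and the median log2 fold change was -0.05. Its gene with the largest mean, Il2rg, encodes the common γ-chain and had a log2 fold change of -0.64, which was -0.20 without CCR8- replicate 1.

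**Figure D2:**
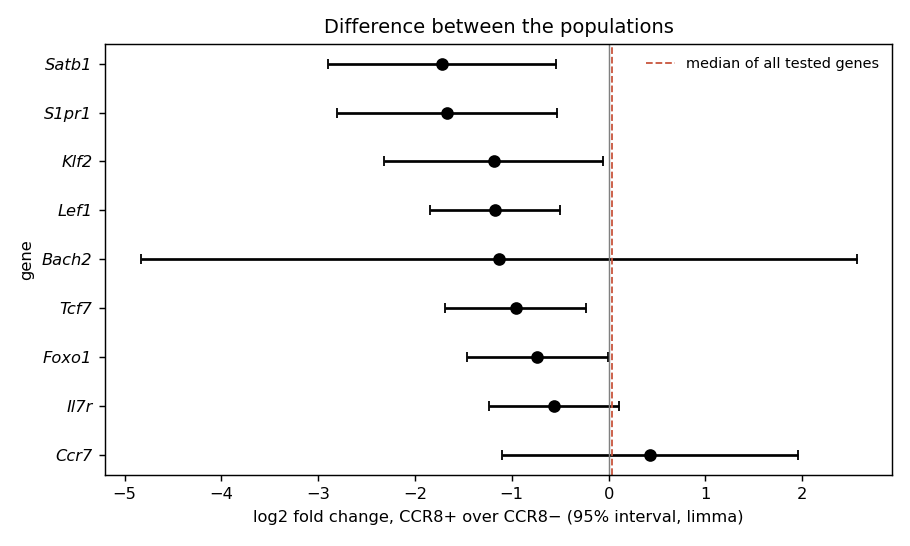
Log2 fold change of the 9 genes, CCR8+ over CCR8- cells, from limma (points) with 95% intervals (bars), beside the median of all tested genes (dashed line). The intervals of Satb1, S1pr1, Klf2, Lef1, Tcf7 and Foxo1 end below 0, and those of Bach2, Il7r and Ccr7 include 0.

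Libraries of the 2 populations carry matching replicate numbers, but the labels do not say that a number stands for 1 mouse or tumor. Within the 4 same-numbered pairs, Tcf7, Lef1, Satb1 and S1pr1 were lower in the CCR8+ library in all 4, which was the case for 8.1% of all tested genes. Klf2, Foxo1, Il7r and Bach2 were lower in 3 of 4 pairs and Ccr7 in 2 of 4. The size was uneven. For Satb1 the log2 differences in pairs 1 to 4 were -1.28, -0.76, -3.90 and -0.94. For Lef1 they were -0.62, -1.08, -2.06 and -0.93, and for S1pr1 -0.58, -1.24, -3.01 and -1.84. For Tcf7 they were -0.40, -0.67, -2.26 and -0.50. Pair 3 thus had the widest gap for each of these 4 genes, and also for Klf2 (-2.74) and Foxo1 (-1.64). CCR8- replicate 3 had the highest level of all 8 libraries for 5 of the 9 genes, and CCR8+ replicate 3 had the lowest for 5. Both of these libraries had the most Ccr8 of their own population. CCR8+ replicate 3 also had 1532 genes at 0. Pair 1 went the other way for Klf2 (1.10), Foxo1 (0.25) and Ccr7 (2.10), pair 2 did so for Bach2 (1.64) and Ccr7 (0.04), and pair 3 for Il7r (0.31).

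**Figure D3:**
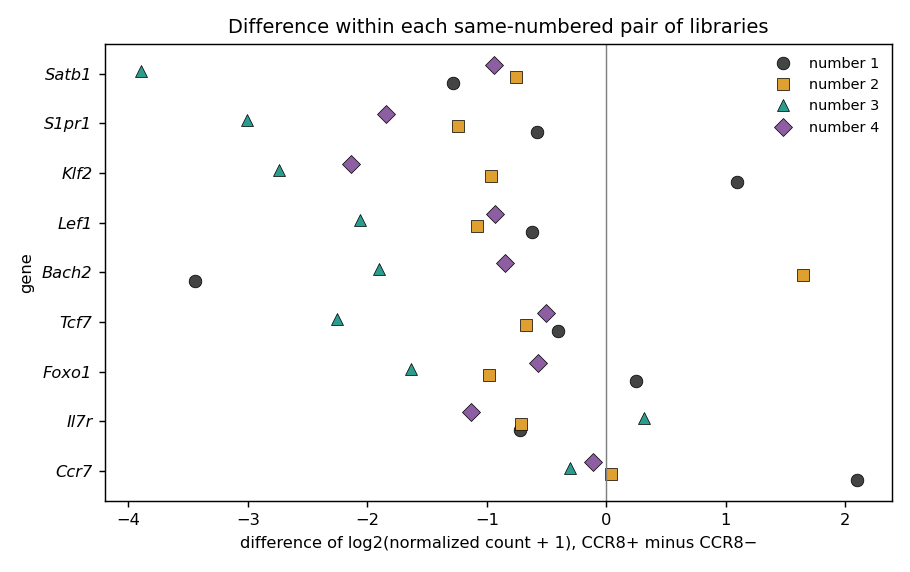
Difference of log2(normalized count + 1), CCR8+ minus CCR8-, within each of the 4 same-numbered pairs of libraries (symbols) for the 9 genes. All 4 symbols lie below 0 for Satb1, S1pr1, Lef1 and Tcf7, and the pair numbered 3 lies farthest to the left for 7 genes, all but Bach2 and Il7r.

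Per kilobase of exon, the order of the 9 genes was led by S1pr1 and Klf2 in CCR8- cells and by Il7r in CCR8+ cells. The length used was that of all annotated exonic bases of a gene, whichever of its transcripts were expressed. It was 19.0 kb for Satb1 and 1.85 kb for Klf2, and the order depends on this choice of length. In CCR8- cells the levels were 1389 ± 405 for S1pr1, 1290 ± 827 for Klf2, 929 ± 442 for Tcf7 and 910 ± 133 for Il7r normalized counts per kilobase. Lower in that order came Ccr7 (452 ± 343), Satb1 (282 ± 67.3), Lef1 (223 ± 35.9), Foxo1 (184 ± 72.5) and Bach2 (4.34 ± 3.68). Between neighbours, only the gaps from Il7r to Ccr7 and from Foxo1 to Bach2 were larger than the larger SD of the pair. In CCR8+ cells the levels were 665 ± 326 for Il7r, 542 ± 400 for S1pr1, 520 ± 260 for Klf2, 458 ± 205 for Ccr7 and 454 ± 119 for Tcf7. Satb1 (106 ± 62.1), Lef1 (104 ± 40.2) and Foxo1 (103 ± 14.9) formed a lower group, and Bach2 was at 2.85 ± 2.46 normalized counts per kilobase. The gaps larger than the SD were those from Tcf7 to Satb1 and from Foxo1 to Bach2.

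A wider list of naive and quiescence genes, with 21 tested members besides the 9, had 17 below 0 and 4 above, with a median log2 fold change of -0.54 and none called. An unadjusted p under 0.05 by limma with a lower level in CCR8+ cells was seen for 3 of the 21 and for 2.29% of all genes. Klf3 and Pik3ip1 were the 2 of these 21 that were lower without overlap, as were 2.03% of all genes. Klf3, a Krüppel-like repressor, was at 1882, 1379, 720 and 953 normalized counts in CCR8- and at 615, 418, 63.9 and 225 in CCR8+ replicates 1 to 4 (log2 fold change -2.22). Pik3ip1, an inhibitor of PI3K, was at 560, 578, 922 and 637 in CCR8- and at 68.1, 208, 413 and 300 in CCR8+ replicates 1 to 4 (log2 fold change -1.68).

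Of 13 genes of egress and tissue retention, 9 were below 0 (47.6% of all genes) and 5 were lower without overlap (2.03% of all genes), with a median log2 fold change of -0.68 and none called. Itgae, the αE integrin that holds T cells at epithelia, and Cxcr3, a chemokine receptor of effector T cells, were both at 0 in CCR8+ replicate 3 and had log2 fold changes of -4.60 and -3.26. That library had 1532 genes at 0, of which 36 reached at least 100 normalized counts in each of the other libraries. Without it, the log2 fold changes were -3.11 for Itgae and -0.41 for Cxcr3. Cxcr4, the CXCL12 receptor, had a log2 fold change of -1.30. The other 2, named after their values were seen, were S1pr4 (-1.26), a further sphingosine-1-phosphate receptor, and Cd69 (-0.68), which opposes S1PR1 at the cell surface.

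A list of 12 genes around FOXO1, mainly of kinases and phosphatases, also held Foxo3, Foxo4 and Mdm2. Of the 12, 7 were below 0 (47.6% of all genes) and the median log2 fold change was -0.04. In this list 2 genes did not overlap (4.4% of all genes, in either direction). These were Pik3cd, the catalytic PI3K subunit p110δ, which was lower (-0.76), and Rictor, a part of mTORC2, which was higher (0.26). Among 15 genes of effector T cells, mostly transcription factors, 13 were above 0, as were 5777 of 11032 tested genes, and 2 below. The split was the reverse of that of the naive genes, with a median log2 fold change of 0.42. None was called. An unadjusted p under 0.05 by limma with a higher level in CCR8+ cells was seen for 5 of the 15. Over all genes, 562 of 11032 (5.09%) had such a p in either direction, 253 of them (2.29% of all genes) with a lower level in CCR8+ cells. Hif1a (0.66) and Batf (0.61) were higher without overlap, as were 2.37% of all genes. Without CCR8+ replicate 3 Batf was at 0.39. The 11 T cell markers had 6 below 0 and 5 above, with none separated between the groups; Cd3g, a CD3 chain, had the largest mean.

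**Figure D4:**
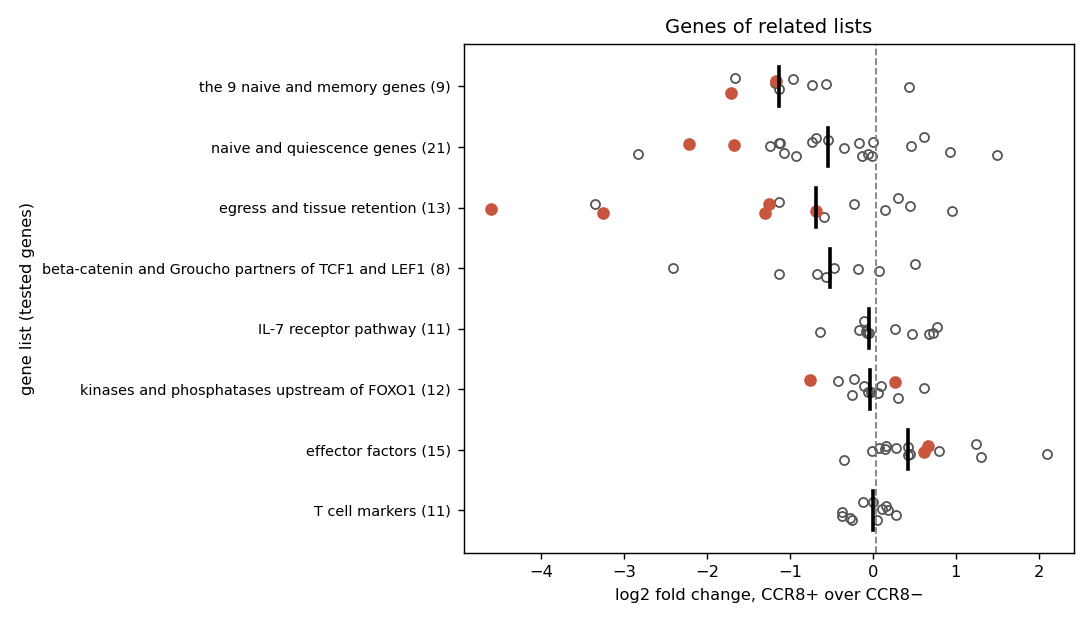
Log2 fold change, CCR8+ over CCR8- cells, of each tested gene in the 9 naive and memory genes and 7 related lists; filled red points are genes whose groups did not overlap, black bars the list medians and the dashed line the median of all tested genes. The median is -1.13 for the 9 genes, -0.54 for other naive and quiescence genes and 0.42 for effector factors.

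The profile of each gene over the 8 libraries was also compared with that of all tested genes with a mean of at least 100 normalized counts. These correlations describe 8 libraries that share a sort and a processing, and carry no test. The profile nearest to that of Satb1 was that of Itgae (Pearson r = 0.99), followed by Gpr155 (0.99). For S1pr1 the nearest were Fam65b (0.98) and Arhgap4 (0.98), for Lef1 Trib2 (0.98) and Cmah (0.97), and for Tcf7 Faah (0.97) and Pik3cd (0.97). For Foxo1 they were Smarca2 (0.97) and Wibg (0.96), for Klf2 Fam210a (0.96) and Ap1g2 (0.95), and for Il7r Kcmf1 (0.93) and Hip1 (0.91). For Ccr7 they were Slc22a15 (0.98) and Clk3 (0.96), and for Bach2 Fkbp4 (0.98) and Pqlc2 (0.95).

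Markers of other cell types varied between libraries, and their part in the differences was not tested. The sum of 5 NK cell markers was between 994 and 2338 normalized counts in CCR8- and between 317 and 939 in CCR8+ libraries. Of the tested markers, 4 of 4 were below 0. Klrk1, an activating receptor that CD8+ T cells also carry, had the largest mean. Klrb1c and Ncr1, named after their values were seen, were at 0 in all 4 CCR8+ libraries. In CCR8- replicates 1 to 4 Klrb1c was at 0, 24.3, 193 and 211 normalized counts and Ncr1 at 0, 0, 28.1 and 44.3. The other NK cell markers were detected in both populations. CD8 T cell markers, Cd8b1 the higher, summed to between 980 and 3805 in CCR8- and between 478 and 1227 in CCR8+ libraries, with 2 of 2 below 0. Naive CD8+ T cells and resting NK cells also express several of the 9 genes. The cells had been sorted as CD4+ T cells, markers of both were detected, and carry-over of either was not tested. The 10 macrophage and monocyte markers, led by Lyz2, were all above 0, with sums between 30.5 and 61025 in CCR8- and between 3045 and 27748 in CCR8+ libraries. Their highest sum was in CCR8- replicate 4, the CCR8- library with the lowest Tcf7, Lef1, Satb1 and S1pr1. Of the CCR8- libraries, replicate 1 had the lowest sum, the lowest Klf2, Foxo1, Ccr7 and Bach2 and the highest Satb1 and Il7r. Among the CCR8+ libraries, replicate 1 had the highest sum and the highest Tcf7, Lef1, Klf2 and S1pr1, while Satb1 was highest in replicate 2. CCR8+ replicate 3 had the lowest sum of its population and the lowest Tcf7, Lef1, Satb1 and S1pr1. Whether these sums and levels are related was not tested. Dendritic cell markers, led by Cd74, had 6 of 8 above 0 and summed to between 5168 and 46174 in CCR8- and between 4309 and 27641 in CCR8+ libraries. Of the B cell markers, Ms4a1 was at 0 in all libraries, and 3 of 3 tested were below 0, Cd22 with the largest mean; their sums were between 73.5 and 833 in CCR8- and between 0 and 532 in CCR8+ libraries. Neutrophil markers, led by S100a8, were both above 0 and summed to at most 108 in CCR8- and 380 in CCR8+ libraries. Endothelial markers, led by Pecam1 and with Emcn at 0, summed to between 183 and 594 in CCR8- and between 291 and 423 in CCR8+ libraries, with 1 of 2 tested below 0. Melanoma markers, led by Dct, had 7 of 7 below 0 and summed to between 105 and 17389 in CCR8- and between 232 and 21841 in CCR8+ libraries.

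How far the groups overlapped depended on single libraries. Lef1 and Satb1, which did not overlap with all 8 libraries, cannot overlap with fewer, so that only additions to these 2 are informative. Without CCR8- replicate 4 or CCR8+ replicate 1, Tcf7 and S1pr1 joined them, where 4.08% and 3.38% of all genes were lower without overlap. Without CCR8+ replicate 3, Il7r joined them (3.15%). Without the 3 libraries with the most genes at 0, CCR8- replicate 1 and CCR8+ replicates 1 and 3, a choice made after seeing the data, 7 of the 9 did not overlap, against 11% of all genes; the 2 that did were Bach2 and Ccr7.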

How the data were processed

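RNA-Seq libraries (Clontech SMARTer low-input kit) of sorted CCR8+ and CCR8- Foxp3EGFP- Tconv cells, 4 of each, were grouped by their titles, and columns were matched to libraries by title. According to the methods, the authors used Cutadapt for trimming and hisat2 for alignment to NCBIM37, and counted unique alignments, scaled by library size with intergenic reads. The submitters' processing notes also name FastQC, HTSeq, DESeq2 and mm9. Tool versions and strand settings are not given in the sources used here. In the deposited table each gene has a signal in each library, a read count over a factor shared by all genes of that library. The authors name it FPM although the library totals lay between 11469410 and 14394101. All values were whole multiples of 1 read (tolerance 0.01), so that reads were recovered for 100% of values. Precision by depth is given with the libraries, and covers counting error only. Unused columns of sample values numbered 0, and 1 name was listed more than once.

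Groups were compared by limma 3.58.1 with a mean-variance trend on log2(normalized count + 1) in R 4.3.3, for genes whose mean reached 10, and p-values were adjusted over all of them by Benjamini and Hochberg. Fold changes are on this scale, which understates those of low genes but can enlarge those of genes at 0 in a library. For Bach2 it gave -1.13, against -0.61 by DESeq2 on recovered reads. Single genes were also compared by a two-sided exact permutation test over the 70 assignments of the libraries. Alternatives used other scalings, pseudocounts of 0.1 and 10, other filters, the replicate number as a block, library weights, edgeR 4.0.16 and DESeq2 1.42.0 on recovered reads, and left-out libraries. The code was tested on simulated data. Promoters came from RefSeq (GRCm38.p6), and gene positions and exon lengths from a later build than that of the alignment.

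The members and lists were chosen with earlier results of these data known. Named were the 9 genes and Ccr8. From each related list, genes called were to be named, with the 3 of largest log2 fold change among those without overlap, or else the gene with the largest mean. From each list of markers of other cell types the gene with the largest mean was named, and for each of the 9 genes the 2 nearest profiles. Single values of 2 genes of these lists are not reported here.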

Additional observations from a re-analysis of the deposited data

Results flagged for a closer look

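Of 20 groups of 4 libraries tested on the log2 scale for a library far from the others (the 9 genes and Ccr8 in both populations), 1 stood out. Lef1 in CCR8- replicate 4 was at 1493 normalized counts, below the other 3 CCR8- libraries, and the gap to the nearest was 0.886 of the range of the group, above Dixon's 95% critical value. Chance flags about 1 in 20 such groups. That value was still above all 4 CCR8+ libraries.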

How the results depend on the processing

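Under 29 alternatives, 260 values of the 9 genes were computed, of which 5 passed the threshold, 6 reversed and the rest kept their direction and side of the threshold; no alternative moved the median of the 9 genes by more than the spread between pairs. Genes called numbered 0 in the limma comparison, 1 with the replicate block, 2 without the trend, 112 with library weights, 27 by DESeq2, 126 by DESeq2 with the replicate block and 0 by edgeR. Of the 9 genes, 4 were called with library weights, namely Lef1 (log2 fold change -1.19, adjusted p = 0.0190), Klf2 (-1.41, 0.0320), S1pr1 (-1.81, 0.0344) and Foxo1 (-0.94, 0.0319), where 1.02% of all genes were called; the weights ran from 0.134 for CCR8- replicate 1 to 8.72 for CCR8- replicate 2. Adjusted p-values over all alternatives ran from 0.0190 for Lef1, 0.0320 for Klf2, 0.00888 for S1pr1 and 0.0319 for Foxo1 up to 0.999 for each. By DESeq2 with the replicate block 1 of the 9 was called, S1pr1 (-1.66, adjusted p = 0.00888), where 1.14% of all genes were called. The block changed no other call of the 9 genes. Correlations of deviations from the group means were between 0.0682 and 0.217 in same-numbered libraries, over 0.1 in 3 of 4 pairs, and between -0.17 and 0.10 in the others; 7 of 8 libraries correlated best with their own number, a hint from the data that does not establish a pairing. The sign reversed for Bach2 with library weights (0.54), without CCR8+ replicate 1 (0.14) and without the 3 libraries with the most genes at 0 (0.15), and for Ccr7 without CCR8- replicate 1 (-0.31), without both libraries numbered 1 (-0.12) and without those 3 libraries (-0.34). Leaving out 1 library gave log2 fold changes from -0.31 to 0.88 for Ccr7 and from -1.75 to 0.14 for Bach2, and for Satb1 from -2.04 to -1.07, the latter without CCR8+ replicate 3. Leaving out both libraries of a number gave between -0.12 and 0.68 for Ccr7 and between -2.06 and -0.37 for Bach2. Bach2 has no value with a mean of at least 100. Causes were not tested. With 4 libraries a group, the width of the intervals limits what can be told apart, and for Bach2 the read depth does so too.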
